A study of Caenorhabditis elegans with 6 samples.

Results

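RNA-Seq counts were examined for 9 *C. elegans* genes of the NuRD and MEC chromatin complexes, of 46739 genes in the count table. The genes were taken by symbol and matched to their WormBase identifiers: *egl-27*, *lin-40*, *hda-1*, *chd-3*, *let-418*, *mep-1*, *lin-53*, *rba-1* and *dcp-66*. Their counts did not enter this rule, but the genes were chosen with earlier results of these data known. The 6 libraries came from whole-worm lysates of wild-type Bristol N2 worms, each pooled from many worms. From young adulthood onward the worms were fed for 5 days at 20 °C with *E. coli* carrying the empty L4440 vector, the control (3 libraries), or a vector for RNA interference with *Y37A1B.5*, the worm ortholog of human SELENBP1 (3 libraries). Libraries were numbered 1 to 3 in each group and are described as biological replicates, and the p-values below measure the spread between these libraries. In RNA of whole worms, fewer cells of a type and less RNA per cell cannot be told apart.

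NuRD joins an ATP-driven nucleosome remodeler of the Mi-2 family with a histone deacetylase, and is known from worms to mammals as a repressor of transcription. In worms the Mi-2 proteins are CHD-3 and LET-418, EGL-27 and LIN-40 resemble the mammalian MTA proteins, HDA-1 is the class I deacetylase, LIN-53 and RBA-1 are histone-binding WD40 proteins of the RbAp46/48 type, and DCP-66 resembles the mammalian p66 proteins. MEC is a related worm complex of LET-418, HDA-1 and the zinc finger protein MEP-1. These proteins are known for holding germline genes and vulval fate genes down in somatic cells, and EGL-27 also for cell polarity, cell migration and the response to stress.

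A library held between 34403223 and 46733527 counts. Of 15003 genes that passed the filter on low counts, 2050 (13.7%) were differentially expressed at an adjusted p under 0.05 in edgeR's quasi-likelihood test. The count of *Y37A1B.5* itself went against the label. It was 32.8, 35.8 and 21.8 CPM (the read count relative to the library total, scaled by TMM factors) in the control libraries. The libraries labelled Y37A1B.5 RNAi had 143, 79.1 and 104 CPM, higher by 1.85 on the log2 scale (SE 0.22, edgeR adjusted p = 0.000834). Whether reads of the RNAi vector entered this count was not tested, so the count alone does not settle whether the labels are right. The libraries are therefore named by their label throughout, and each direction below is that of the labelled libraries relative to control. Labelled library 3 stood apart from the other libraries of its group. Its median absolute log2 difference from labelled libraries 1 and 2 was 0.206 and 0.188, against 0.103 between those, and 0.101 to 0.142 among controls.

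All 9 genes passed the filter, with 2680 to 18175 counts per library. At the lowest of these counts the counting SD is 1.93%, so depth did not limit their values. Levels are compared between genes only per kb of exon length, in the control libraries first. *lin-53* was highest at 257 ± 7.32 CPM per kb (mean ± SD, n = 3), followed by *hda-1* at 156 ± 4.12 and *rba-1* at 130 ± 3.03. *mep-1* followed at 97.7 ± 2.89, *let-418* at 86.3 ± 2.67, *dcp-66* at 64.7 ± 1.26 and *egl-27* at 62.9 ± 2.27. The lowest were *lin-40* at 46.1 ± 0.37 and *chd-3* at 28.2 ± 1.12 CPM per kb. The genes of the histone-binding proteins and the deacetylase thus had the highest transcript levels, and *chd-3* the lowest. Among neighbours in this order the 3 control libraries overlapped only for *dcp-66* and *egl-27*. The means of the labelled libraries stood in the same order, from 239 ± 18.2 CPM per kb for *lin-53* to 15.2 ± 2.93 for *chd-3*. There, each neighbouring pair from *mep-1* down to *lin-40* overlapped, as did *hda-1* and *rba-1*.

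**Figure D1:**
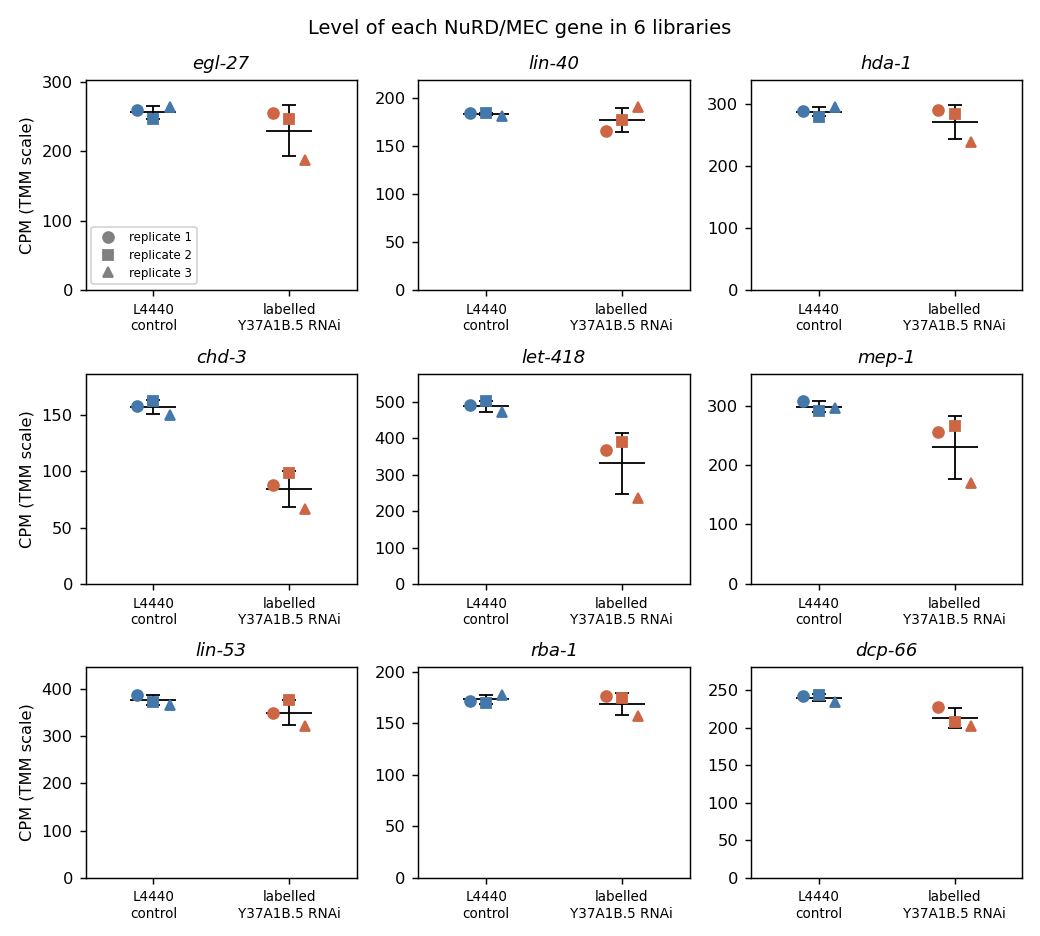
Level of each gene in CPM on the TMM scale (y axis, from 0) in the 3 control libraries (blue) and the 3 libraries labelled Y37A1B.5 RNAi (red). Marker shapes give the library number, and the lines the mean and SD of 3 libraries. The groups are apart for *chd-3*, *let-418*, *mep-1* and *dcp-66*, and labelled library 3 (triangle) is the lowest of the 6 for 8 of the 9 genes.

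Both Mi-2 genes fell, and 0 of the 9 genes rose. *chd-3* was at 53.7% of control (95% interval 44.5 to 64.9) and *let-418* at 67.8% (95% interval 53.2 to 86.5). With 2 of 9 genes called lower, the count stands beside 8.85% of all genes tested that were called lower. The 0 called higher stand beside 722 of 15003 genes tested. DESeq2 called 3 of the 9 lower, the same genes and *mep-1*, beside 9.99% of the genes it tested, and 0 higher. The log2 fold changes of the 9 genes ranged from −0.90 to −0.03, with a median of −0.16 against −0.03 over all genes tested. All 9 were below 0, but those of *egl-27*, *lin-40*, *rba-1* and *dcp-66* were above 0 once the trend of fold change with gene length was removed (below). In that fit the median over all genes tested was 0.04. In 4 of the 9 genes the 3 labelled libraries all lay under the 3 controls, beside 22.1% of all genes tested. With 3 libraries against 3, an exact permutation test of a single gene reaches no p under 0.1.

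The Mi-2 genes encode the ATPase subunits. LET-418 is essential for development, and CHD-3 is its close, non-essential relative. *chd-3* (WBGene00000482, minus strand of chromosome X from 12846439 to 12852601 in WBcel235) had 158, 163 and 150 CPM in control libraries 1 to 3 and 88.3, 98.4 and 66.5 CPM in the labelled libraries. Each labelled library lay far under each control, the lowest being library 3. The log2 fold change was −0.90 (SE 0.12, edgeR adjusted p = 0.00182). The call held under each of the 15 alternative analyses, with log2 fold changes of −1.02 to −0.56.

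*let-418* (WBGene00002637, plus strand of chromosome V, 5826833 to 5832831) had 490, 502 and 472 CPM in the controls and 367, 391 and 236 CPM in the labelled libraries. Again the groups did not overlap, with labelled library 3 well under the other labelled libraries. The log2 fold change was −0.56 (SE 0.16, edgeR adjusted p = 0.0424), close to the threshold. This call was lost without control library 1, 2 or 3, with an adjusted p of 0.117, 0.136 and 0.0779, although the log2 fold change stayed between −0.58 and −0.54. Without labelled library 3 the log2 fold change was smaller, −0.36, and the adjusted p was 0.00139.

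The ratio of the Mi-2 genes within a library, which does not depend on the scaling of libraries, shifted toward *let-418*. Per kb, *let-418* over *chd-3* was 3.04, 3.04 and 3.09 in the controls and 4.09, 3.91 and 3.48 in the labelled libraries. The means were 3.06 ± 0.03 and 3.82 ± 0.31 (SD, n = 3), with no overlap. *chd-3* was thus reduced relative to *let-418* in each labelled library, by the least in library 3. No test was made of this ratio.

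**Figure D2:**
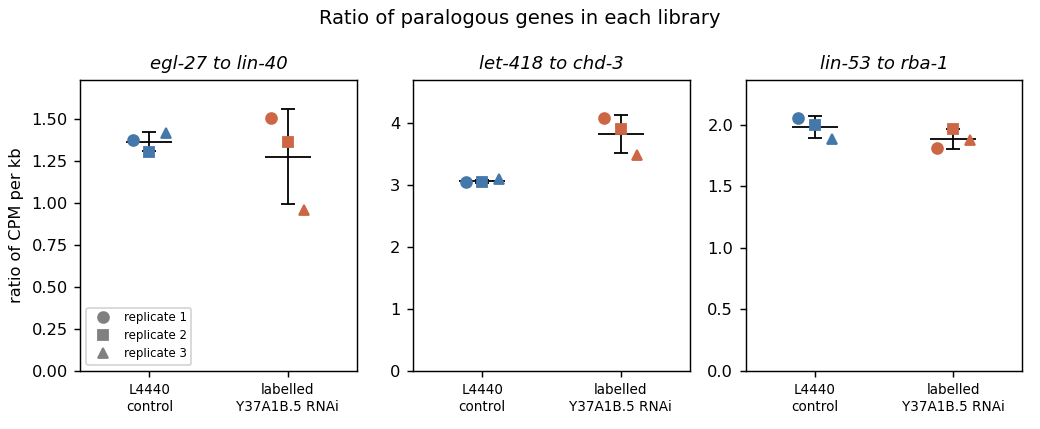
Ratio of CPM per kb (y axis, from 0) between the genes of each related pair in every library, with mean and SD of the 3 control libraries (blue) and the 3 labelled libraries (red), and marker shapes for the library number. The ratio of *let-418* to *chd-3* lies between 3.48 and 4.09 in the labelled libraries, above all controls, and the other ratios overlap.

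*mep-1*, for the zinc finger partner of LET-418 in MEC (WBGene00003218, plus strand of chromosome IV, 11524642 to 11527954), had 308, 290 and 296 CPM in the controls and 256, 265 and 169 CPM in the labelled libraries. The groups did not overlap, with labelled library 3 far under the rest. With a log2 fold change of −0.37 (SE 0.14), *mep-1* did not pass the edgeR test (adjusted p = 0.105). It passed under 3 of the 15 alternatives, namely DESeq2 (adjusted p = 0.0439), no filter on low counts (0.00171), and without labelled library 3 (0.0203), where the log2 fold change was −0.19.

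Neither MTA-type gene passed the edgeR test. *egl-27* (WBGene00001194, plus strand of chromosome II, 6835008 to 6847908, with 24 annotated transcripts) had 260, 246 and 264 CPM in the controls and 256, 247 and 188 CPM in the labelled libraries. Labelled libraries 1 and 2 lay within the range of the controls, and only library 3 lay under them. The log2 fold change was −0.16 (SE 0.11, 95% interval −0.40 to 0.09, edgeR adjusted p = 0.345), and *egl-27* passed the test under 0 of the 15 alternatives. Without labelled library 3 it was −0.02.

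*lin-40* (WBGene00003025, plus strand of chromosome V, 3704988 to 3712796) had 184, 184 and 181 CPM in the controls and 165, 176 and 190 CPM in the labelled libraries. It was the 1 gene of the 9 in which labelled library 3 was the highest of the 6 libraries. The log2 fold change was −0.05 (SE 0.07, 95% interval −0.21 to 0.12, edgeR adjusted p = 0.697). Per kb, *egl-27* over *lin-40* was 1.37, 1.30 and 1.41 in the controls and 1.51, 1.36 and 0.959 in the labelled libraries. Labelled library 3 was the 1 library in which *lin-40* exceeded *egl-27*, while the groups overlapped (1.36 ± 0.06 and 1.28 ± 0.28).

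The 5 genes whose profile over the 6 libraries was closest to that of *egl-27*, of 8870 genes with at least 5 CPM, were *skn-1*, *F33H1.4*, *gldr-2*, *crn-3* and *rfc-3*. The root mean square difference of centred log2 CPM was 0.0061 for *skn-1*, the gene of a transcription factor of the oxidative stress response, and 0.0120 for *rfc-3*, that of a subunit of the DNA replication clamp loader. *skn-1* had 315, 296 and 320 CPM in the controls and 310, 301 and 227 CPM in the labelled libraries. These 5 genes were picked as the nearest of 8870 over 6 libraries. Whether they lie closer than selection and counting error alone would give was not tested. Their likeness in profile therefore does not show a link to *egl-27*.

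Differences in the deacetylase, the histone-binding proteins and the p66-type subunit did not pass the edgeR test. *hda-1* (WBGene00001834, plus strand of chromosome V, 14525389 to 14527411) had 288, 279 and 294 CPM in the controls and 290, 283 and 238 CPM in the labelled libraries. As with *egl-27*, only labelled library 3 lay under the controls. The log2 fold change was −0.09 (SE 0.09, 95% interval −0.28 to 0.11, adjusted p = 0.52).

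*lin-53* and *rba-1* lie next to each other on the minus strand of chromosome I, at 9618196 to 9619760 and 9616516 to 9618107, and their exons do not overlap. *lin-53* (WBGene00003036), which also serves the DREAM complex, had 388, 373 and 367 CPM in the controls and 351, 376 and 323 CPM in the labelled libraries, with overlap between the groups. Its log2 fold change was −0.10 (SE 0.08, 95% interval −0.29 to 0.08, edgeR adjusted p = 0.396). *rba-1* (WBGene00004312) had 172, 170 and 178 CPM in the controls and 176, 174 and 157 CPM in the labelled libraries, and of the 9 genes it had the log2 fold change nearest to 0. Its log2 fold change was −0.03 (SE 0.07, 95% interval −0.20 to 0.13, edgeR adjusted p = 0.776). The ratio of *lin-53* to *rba-1* per kb was 1.98 ± 0.09 in the controls and 1.89 ± 0.08 in the labelled libraries, and overlapped.

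*dcp-66* (WBGene00000938, minus strand of chromosome I, 7536104 to 7542159) had 242, 244 and 234.8 CPM in the controls and 228, 208 and 203 CPM in the labelled libraries. Here the spread was small in both groups and the groups did not overlap. The log2 fold change was −0.17 (SE 0.07, 95% interval −0.34 to −0.01), and the edgeR adjusted p was 0.133. Over the 15 alternatives the adjusted p of *dcp-66* ranged from 0.0755 to 0.523.

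Fold changes fell with exon length across all genes tested, and the Mi-2 genes are the longest of the 9, with 5561 bp of exon in *chd-3* and 5655 bp in *let-418*, against a median of 1364 bp over all genes tested. Among the 172 tested genes within 10% of the exon length of *chd-3*, the median log2 fold change was −0.30 and 24.4% were called lower. Among the 155 genes near the length of *let-418*, the median was −0.32 and 24.5% were called lower. Both Mi-2 genes thus lay under the median of genes of like length, *chd-3* farther than *let-418*. Of these genes, 8 of 172 had a lower log2 fold change than *chd-3*, and 28 of 155 a lower one than *let-418*. *mep-1*, at −0.37, also lay under the median of −0.16 of its like-length genes. *egl-27*, at −0.16, and *lin-40*, at −0.05, lay above theirs, −0.26 and −0.22.

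**Figure D3:**
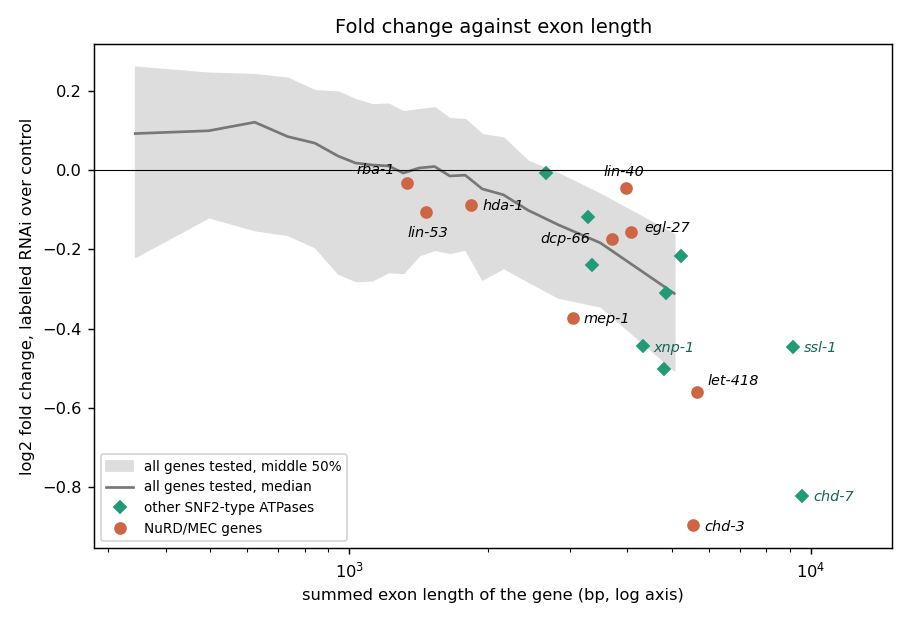
Log2 fold change (y axis, labelled libraries over control) against summed exon length (x axis, log scale) for the 9 genes (red circles) and other SNF2-type ATPases (green diamonds). The grey line and band are the median and middle 50% of all genes tested, in bins of length. The median falls toward long genes, *chd-3* lies at −0.90, well under it, and *egl-27*, *lin-40* and *dcp-66* lie at or above it.

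The length trend differed in size between the labelled libraries. Relative to the control mean, genes of the length of *chd-3* had a median log2 difference of −0.18 in labelled library 1, −0.17 in library 2 and −0.59 in library 3. *chd-3* itself was at −0.83, −0.67 and −1.24, so that it stood 0.65, 0.50 and 0.65 below them. *let-418* was at −0.41, −0.32 and −1.05, which is 0.22, 0.13 and 0.44 below genes of its length. For *egl-27* the values were 0.00, −0.06 and −0.45, beside medians of −0.15, −0.15 and −0.47 for genes of its length, so that its low value in labelled library 3 was that of genes of like length. *lin-40* was at 0.06 in labelled library 3, where genes of its length had a median of −0.43.

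With the length trend removed from each library by an offset, *chd-3* was called lower with a log2 fold change of −0.56 (95% interval −0.71 to −0.41, edgeR adjusted p = 0.000236). *let-418* was no longer called, with a log2 fold change of −0.23 (95% interval −0.42 to −0.05, adjusted p = 0.0741). This left 1 of the 9 genes called lower, beside 8% of all genes tested. *mep-1* was at −0.19 (adjusted p = 0.213), *egl-27* at 0.10 (adjusted p = 0.355) and *lin-40* at 0.23 (95% interval 0.01 to 0.44, adjusted p = 0.129). What gave rise to the length trend was not tested.

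**Figure D4:**
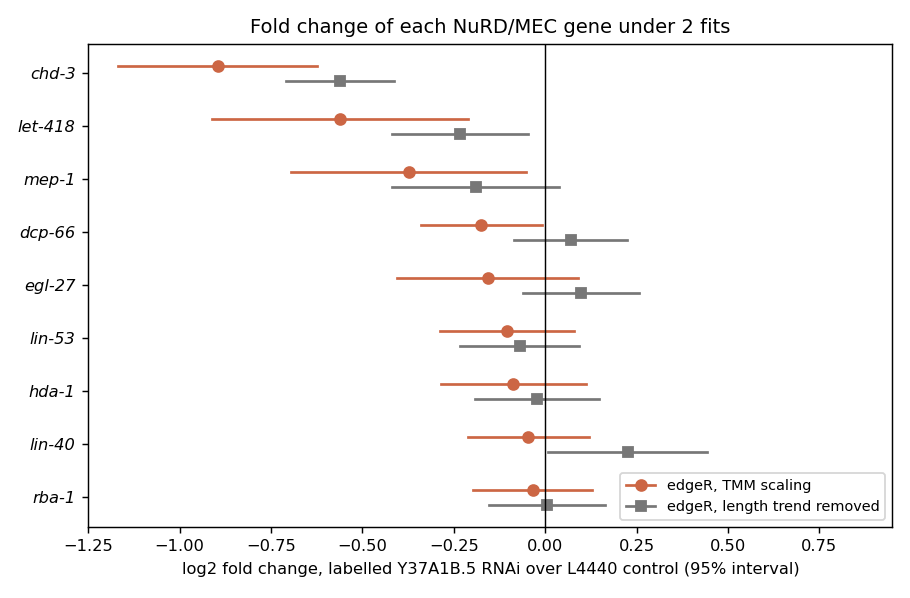
Log2 fold change of each gene (x axis) with its 95% interval, from edgeR with TMM scaling (red circles) and with the length trend removed (grey squares). *chd-3* is at −0.90 and −0.56, below 0 with its whole interval in both fits, and *egl-27*, *lin-40*, *rba-1* and *dcp-66* move from below to above 0.

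The other genes of chromatin regulation were followed as lists. Of 9 other ATPases of the SNF2 type, 3 fell and 0 rose, beside 8.85% of all genes tested that were called lower, with a median log2 fold change of −0.31. The median exon length of this list was 4813 bp, and larger shares of long genes were called lower (above). *chd-7*, of the CHD family like the Mi-2 genes, fell from 303 ± 12.7 to 172 ± 33.2 CPM (mean ± SD, n = 3), a log2 fold change of −0.82 (SE 0.13, edgeR adjusted p = 0.00319). *ssl-1*, for the ATPase related to yeast Swr1, fell by 0.45 and *xnp-1*, the ortholog of human ATRX, by 0.44 on the log2 scale (adjusted p = 0.0247 and 0.0367). These are long genes too, with 9577 bp of exon in *chd-7*, and with the length trend removed only *chd-7* was called among the 9 ATPases (log2 fold change −0.33, adjusted p = 0.00559). Over the alternatives 1 to 5 of the 9 were called, and 1 without control library 1, 2 or 3.

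Of 14 DREAM and other synMuv B genes, which with NuRD genes hold down vulval fates, 2 fell and 0 rose. This stands beside 8.85% of all genes tested that were called lower, and the median log2 fold change of the list was −0.09. *lin-15B* had 101, 101 and 96.4 CPM in the controls and 75.9, 81.8 and 51.7 CPM in the labelled libraries (log2 fold change −0.51, SE 0.14, edgeR adjusted p = 0.0376). *lin-65* fell by 0.25 on the log2 scale (adjusted p = 0.0292). Without control library 1, 2 or 3, and with the length trend removed, 0 of the 14 were called. Of 7 other corepressor genes 1 was called lower, beside the same 8.85% of all genes tested. It was *unc-37*, for the Groucho-type corepressor, which fell by 0.28 on the log2 scale (adjusted p = 0.0355). Of the 7, 0 were called without control library 1, 2 or 3 or with the length trend removed.

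In the other lists of chromatin genes 0 genes passed the edgeR test. Counts of unadjusted p-values under 0.05 are given here and below as values only. Their share over all genes tested was not calculated, but cannot be below the 13.7% with an adjusted p under 0.05. The 8 genes tied to MEP-1 were its splicing and germline partners, *lin-1* and the SUMO genes. Of these, 2 had an unadjusted p under 0.05, and DESeq2 called 2. The smallest p-values were those of *mog-5*, at −0.37, and *mog-1*, at −0.36 (adjusted p = 0.0632 and 0.103), both for DEAH-box proteins of germline sex determination. The 11 other histone deacetylases and sirtuins had a median log2 fold change of 0.03, with 1 unadjusted p under 0.05 and 0 calls by DESeq2. *hda-2*, the class I relative of *hda-1*, was at 0.21 (adjusted p = 0.0981), and was called higher with the length trend removed (0.25, adjusted p = 0.0435). The 9 histone chaperones had a median of −0.03, with 2 unadjusted p-values under 0.05, and the 3 PRC2 genes of −0.18, with 1, and DESeq2 called 0 in both lists.

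**Figure D5:**
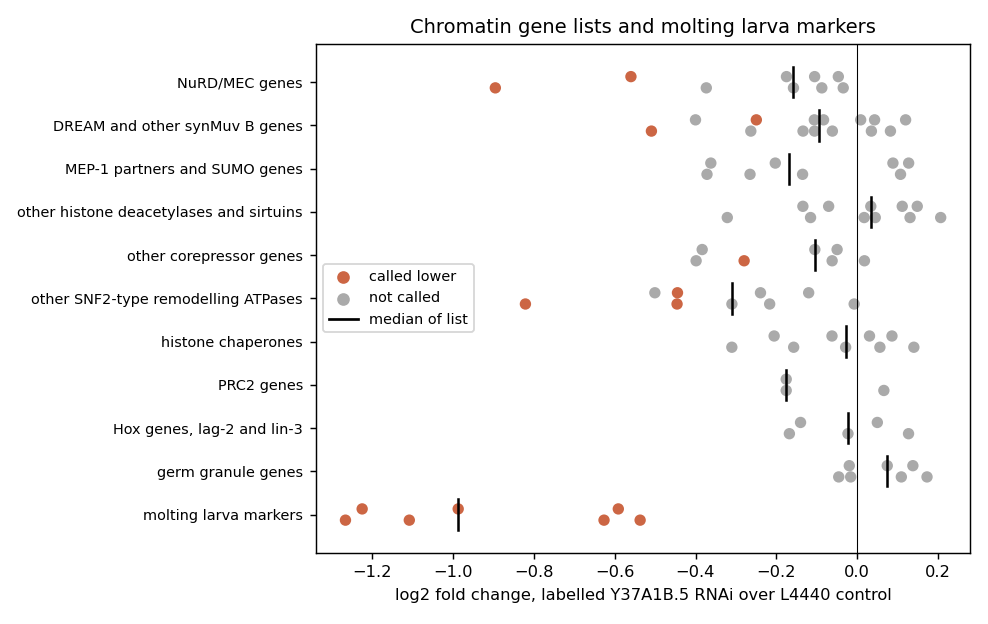
Log2 fold change (x axis, labelled libraries over control) of the genes tested in each list of chromatin genes and in the molting larva markers. Points are genes, red where called lower by edgeR and grey where not called, and black lines are list medians. The 9 NuRD/MEC genes have a median of −0.16, the SNF2-type ATPases of −0.31 and the molting larva markers of −0.99.

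Genes known to be held down by NuRD or MEC proteins were not called in either direction. The 7 germ granule genes that MEP-1 and LET-418 keep off in somatic cells (*pgl-1*, *pgl-3*, *glh-1* to *glh-4* and *deps-1*) had a median log2 fold change of 0.07, with 0 unadjusted p-values under 0.05 and 0 calls by DESeq2. *pgl-3*, for a germ granule protein, was at 0.17 (edgeR adjusted p = 0.151). With the length trend removed, 4 of the 7 were called higher and the median was 0.26, beside 11.3% called higher and a median of 0.04 over all genes tested. The 6 germline nucleus markers include *glh-1* and *pgl-1* of these 7 genes, so the lists are not independent. In that fit 3 of the 6 were called higher, with a median of 0.20. They were *pgl-1*, which is called in both lists, *him-3* and *syp-2*. The part of germline RNA in the result was not tested. In whole adult worms the germ granule genes are read from the germline, so that their level does not show their state in somatic cells. The Hox genes *mab-5*, *lin-39* and *egl-5* with *lag-2* and *lin-3*, for ligands of Notch and of the EGF receptor, had a median of −0.02, with 0 unadjusted p-values under 0.05 and 0 calls by DESeq2. *lin-3* was at 0.13 (adjusted p = 0.271) and was called higher with the length trend removed.

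Markers of molting larvae were lower in the labelled libraries, as *chd-3* and *let-418* were. Of 7 molting larva markers, 7 fell, beside 8.85% of all genes tested that were called lower. Their median log2 fold change was −0.99, and their summed level was 405 to 492 CPM in the controls and 190 to 237 CPM in the labelled libraries. The strongest by adjusted p was *noah-2*, of the apical extracellular matrix, at −0.99 (edgeR adjusted p = 0.00056). All 7 fell also with the length trend removed, and 5 to 7 were called over the alternatives. Among zygotic embryo markers 1 of 5 tested fell (*tbx-38*, −0.41, adjusted p = 0.0429), beside the same 8.85% of all genes tested. Their sums were 33.1 to 42.2 CPM in the controls and 30.0 to 35.4 CPM in the labelled libraries. Over the alternatives 0 to 2 embryo markers were called. The number was 0 when scaled to the qRT-PCR reference genes, and without control library 1 or 2 or labelled library 1 or 3. The part of larval or embryonic RNA in the levels of *chd-3* and *let-418* was not tested.

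Among markers of the adult tissues the edgeR test called *syp-2*, *pat-10* and *col-19*, all higher. This stands beside 722 of 15003 genes tested that were called higher. Oocyte and eggshell markers (0 of 9 called, 0 by DESeq2, 0 unadjusted p-values under 0.05) summed to 7419 to 8183 CPM in the controls and 7156 to 8681 CPM in the labelled libraries. Germline nucleus markers summed to 1060 to 1192 and 1059 to 1269 CPM, with *syp-2* higher (log2 fold change 0.37, edgeR adjusted p = 0.0338). Their log2 fold changes ranged from −0.25 to 0.37, with a median of 0.05. Over the alternatives 0 to 3 of the 6 were called. The number was 0 when scaled to the qRT-PCR reference genes, and without control library 1 or 2 or labelled library 1. Neuron markers summed to 240 to 260 and 228 to 248 CPM, with 0 of 6 called, 2 unadjusted p-values under 0.05 and 1 call by DESeq2. Body wall muscle markers summed to 260 to 332 and 308 to 325 CPM, with *pat-10* higher (0.54, adjusted p = 0.0329). Their log2 fold changes ranged from −0.45 to 0.54, with a median of −0.02. Over the alternatives 0 to 2 of the 5 were called, and 0 without control library 1 or 2 or when scaled to the reference genes. Epidermis markers summed to 30.8 to 45.0 and 42.005 to 47.9 CPM, with *col-19*, an adult cuticle collagen, higher (0.75, adjusted p = 0.0216). The other epidermis markers were below 0, at −0.46 to −0.19, and not called, and the list median was −0.20. Intestine markers, led by the vitellogenins, summed to 20357 to 26778 and 12461 to 23573 CPM, lowest in labelled library 3, with 0 of 6 called, 1 unadjusted p under 0.05 and 0 calls by DESeq2. Sperm markers were near 0, at 0.788 to 1.63 and 0.894 to 1.64 CPM in sum.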

How the data were processed

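The authors deposited raw counts per gene for 6 libraries, without normalization. Per the labels and the methods, reads were converted with bcl2fastq 1.8.4, quality-trimmed with SGA preprocess, mapped to WBcel235 with TopHat2 2.1.0 and counted with featureCounts 1.5.0, keeping uniquely mapped reads on the strand of 1 gene. Reads shared by near-identical genes or by overlapping genes were therefore left out. All count columns were matched to a sample.

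The quasi-likelihood test of edgeR 4.0.16 was run on the counts under R 4.3.3 (TMM factors, filterByExpr with minimum count 10 and minimum total 15, two-sided), with Benjamini-Hochberg adjustment over all genes tested and a threshold of 0.05. CPM values were calculated on the TMM scale. Exon lengths (merged over transcripts) and positions came from Ensembl release 115 of the same build, which holds 46484 of the 46739 genes (99.5%). The length trend was fitted per library by loess (span 0.5) and used as an offset. This offset held the level of the fitted curve as well as its slope, so that it also re-centred each library. DESeq2 1.42.0, other scalings and filters, a replicate block and leaving out each library were the alternatives. The scripts were tested on simulated data.

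The members and lists were chosen with earlier results of these data known. Named are all members, in each list at most the 3 called genes of lowest adjusted p (with none called, at most the 2 of lowest p), and the 5 genes most like *egl-27*.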

Additional observations from a re-analysis of the deposited data

How the results depend on the processing

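Of the 9 genes, *chd-3* was called lower in 15 of 15 alternatives, *let-418* in 10, *mep-1* in 3 and the others in 0. The number of the 9 called was 1 with the length trend removed, 1 with the replicate block and the length trend removed, and 1 to 3 when a library was left out, against 2. Over all genes, 1349 were called when scaled to the qRT-PCR reference genes, 3298 without a filter, 3683 with the replicate block and the length trend removed, and 727 (without control library 2) to 2811 (without labelled library 3) when a library was left out, against 2050. Without control library 1 or labelled library 1 the numbers were 862 and 1346. Of the 9 genes, those without overlap of the groups numbered 7 with upper-quartile factors and 6 when scaled to the reference genes, against 4. The share over all genes was not calculated for these scalings. The median log2 fold change of all genes tested was −0.060 with upper-quartile factors and −0.0051 with the reference genes, against −0.028. The share of called genes that were higher was 35.2%, and 23.8% with upper-quartile factors, 48.1% with DESeq2 and 58.5% with the length trend removed.

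With the length trend removed the log2 fold change turned to 0.10 for *egl-27*, 0.23 for *lin-40*, 0.0050 for *rba-1* and 0.070 for *dcp-66*, and with the replicate block added to 0.098, 0.21, 0.0031 and 0.068. When a library was left out it ranged from −0.093 to 0.018 for *lin-40*, −0.13 to 0.0023 for *hda-1* and −0.055 to 0.023 for *rba-1*. With the length trend removed the median log2 fold change of all genes tested moved from −0.028 to 0.043, as the offset also re-centred each library. Apart from this, why these values turned was not tested.

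The study describes independent experiments, so the replicate numbers may mark them, but the labels do not say so, and the libraries were taken as paired only if each like-numbered correlation exceeded 0.1. The deviation of a library from its group mean was correlated, over genes, with that of the like-numbered library at 0.135, 0.0626 and 0.121, and with others at −0.146 to 0.0357, so that 1 of 3 fell short, although each library correlated best with its own number. With the replicate block, *chd-3* was at −0.91 (edgeR adjusted p = 0.000968) and *let-418* at −0.59 (0.0189), 2 of the 9 genes were called, and 2917 of all genes. Counting error was small for the 9 genes, and 3 libraries per group limit the tests.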
